A study of Homo sapiens with 24 samples.

Results

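The 38 genes described here encode subunits of the 5 enzyme complexes of the mitochondrial respiratory chain and ATP synthase. They were chosen by gene symbol (symbols beginning with NDUF, SDH, UQCR, COX or ATP5 that name a subunit). The rule used no measured values, but earlier results of these data were known when it was set. Members also had to be listed in every library of a batch. They were 38 of the 6603 genes listed in batch 1 and the same 38 of the 7223 listed in batch 2. Complex I had 15 members, complex II 2, complex III 5, complex IV 9 and complex V 7. Complexes I and II pass electrons from NADH and succinate to ubiquinone, complex III passes them on to cytochrome c, and complex IV passes them to oxygen. Complexes I, III and IV pump protons, and complex V, the ATP synthase, uses the proton gradient to make ATP. The genes here lie in the nucleus and are transcribed by RNA polymerase II, the enzyme on which Integrator acts. Nuclear genes of the chain are known to share regulators, among them NRF1, ETS-family factors and YY1. The symbols also took in 3 members whose role is not that of a classical subunit of the complex named. ATP5IF1 is the inhibitor protein of ATP synthase, COX7A2L helps to join complexes III and IV, and NDUFA4, which RefSeq lists as COXFA4, is now assigned to complex IV. Counts by complex follow the symbol, so NDUFA4 is counted under complex I throughout.

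The libraries were TT-seq, in which RNA made during a short labelling pulse is isolated and sequenced, from DLD1, a human colorectal adenocarcinoma line. The study compared the endonuclease and phosphatase parts of Integrator, a complex that also terminates polymerase II near promoters. All 3 lines carried a dTAG degron at an Integrator gene, so that the small molecule dTAG13 leads to loss of the tagged protein. The INTS11 line carried the tag on INTS11, the endonuclease. The INTS8 line carried it on INTS8, which links the phosphatase PP2A to the complex. The N211del line was the tagged INTS8 line with an added INTS8 carrying the N211del change, and the promoter of that added gene was not given in the sources used here. Every line of batch 1 received either dTAG13 or its vehicle DMSO for 3 h. Batch 2 followed the INTS11 and N211del lines over 0, 1 and 3 h of dTAG13, without a vehicle group. There were 12 groups of 2 libraries, which the labels call biological duplicates, and 24 libraries in total. The 1 h and 3 h comparisons of a line share its 0 h libraries. No untagged line received dTAG13, so effects of the compound itself cannot be told apart from loss of the protein. The tag acts on the protein, so that loss cannot be checked in RNA values, and INTS11 and INTS8 themselves were not analysed here. In bulk libraries less RNA per cell and fewer cells cannot be told apart.

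Each value is the signal per kilobase of gene, introns included, as the values behave (the deposited unit is named FPKM in the headers). Total signal over the listed genes came to between 5514811 and 8114955 whole-number units in batch 1 and between 8709459 and 11267005 in batch 2. The median member had 266 to 353 of these units per library of batch 1, and 455.5 to 576 per library of batch 2. Across genes, the libraries of a pair correlated at r = 0.9945 to 0.9966. The gap within 7 of the 12 pairs did not exceed counting noise (chi-square per gene over all pairs, 0.88 to 1.735), with the units taken as counts. Over the members alone the value ran from 0.557 to 1.971. It was 1.273 at 0 h and 1.523 at 3 h in the INTS11 line of batch 2, 2 of those 7 pairs. The 7 pairs were kept as 2 samples each as labelled, and p-values measure only the spread among such libraries, which may be technical. Of the epithelial markers, 7 of 8 were listed, among them CDH1 at 50.1 to 68.0 and EPCAM at 110.9 to 155.8 per kb. Of 6 markers of other cell types only COL1A1 was listed, at 0 to 0.32. A gene is said to have risen or fallen where limma's adjusted p over all tested genes (6579 in batch 1, 6950 in batch 2) was at most 0.05, and fold changes are log2(value + 0.1).

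Most members lay above the median gene. Over the 12 libraries of batch 1 their mean levels ran from 6.88 to 154.2 per kb, with a median of 33.3 against 16.7 for all listed genes, and 32 of 38 were above the median gene. In batch 2 they ran from 7.91 to 156.4, with a median of 34.8 against 14.4, and 33 of 38 were above it. Complexes IV and V were the highest, with batch 1 medians of 46.9 and 46.7 per kb, followed by complex III at 31.8, complex I at 23.2 and complex II at 18.6. Levels within complexes I, III, IV and V ran over wider ranges than the gaps between these medians. The highest level in each complex of batch 1 belonged to ATP5IF1 (154.2), COX7C (111.2), NDUFB4 (70.2), UQCRFS1 (50.7) and SDHB (21.5). The lowest belonged to COX7B (6.88), NDUFS4 (11.1), ATP5MG (12.8), SDHC (15.7) and UQCRB (22.7). NDUFS4 was also the longest member, at 122700 bp, and COX8A the shortest, at 1924 bp. The members were compact genes, with a median length of 10652.5 bp against 33624 bp for all genes, and 34 of 38 were shorter than the median gene.

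Newly made RNA of many of these genes, and of NDUFS4 above all, fell after dTAG13 in the INTS11 line. Counts for the lines with tagged INTS8 depended on the scale, and after centring each library on its median gene 20 members fell in the INTS11 line of batch 1, 20 in the INTS8 line and 24 in the N211del line. The counts that follow are on the deposited scale. In batch 1, 19 of 38 members fell in the INTS11 line and 0 rose. Of all tested genes 19.8% fell and 19.4% rose in that comparison. The members' median log2 fold change was -0.20, against -0.03 for all genes. Without replicate 2 of the INTS11 DMSO group 10 members fell and 0 rose, as with replicate pairs that agreed within counting noise averaged. The INTS8 line had 8 members that fell and 2 that rose, where 21.0% of all genes fell and 34.6% rose, and 5 fell without replicate 2 of either of its groups. The N211del line had 3 that fell and 6 that rose, where 7.10% of all genes fell and 48.5% rose. Its count of rises was 3 without replicate 2 of DMSO and 10 without replicate 1 of dTAG13. For those lines the members' medians were -0.07 and 0.07, against 0.06 and 0.21 for all genes.

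The INTS11 line of batch 2 had 9 members that fell and 3 that rose at 1 h, against 9.86% and 46.0% of all genes. At 3 h 11 fell and 4 rose, against 19.3% and 36.0%. Without replicate 1 of 0 h the rises of that line numbered 6 at 1 h and 7 at 3 h. The N211del line had 1 member that fell and 17 that rose at 1 h, against 4.92% and 66.0% of all genes. At 3 h 3 fell and 8 rose, against 13.8% and 49.7%. Without replicate 1 of 0 h the 1 h count of the N211del line was 2 lower and 9 higher, and without replicate 1 of 1 h it was 3 lower and 10 higher. Its 3 h rises numbered 5 without replicate 1 of 3 h. The members' medians were 0.01, -0.03, 0.15 and 0.05 in that order, and those of all genes 0.16, 0.08, 0.31 and 0.18. Of the 38 members, 32 were called in at least 1 of these 7 comparisons. The 6 called in none were COX5B, COX7B, COX8A, NDUFA10, NDUFC2 and UQCRFS1.

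**Figure D1:**
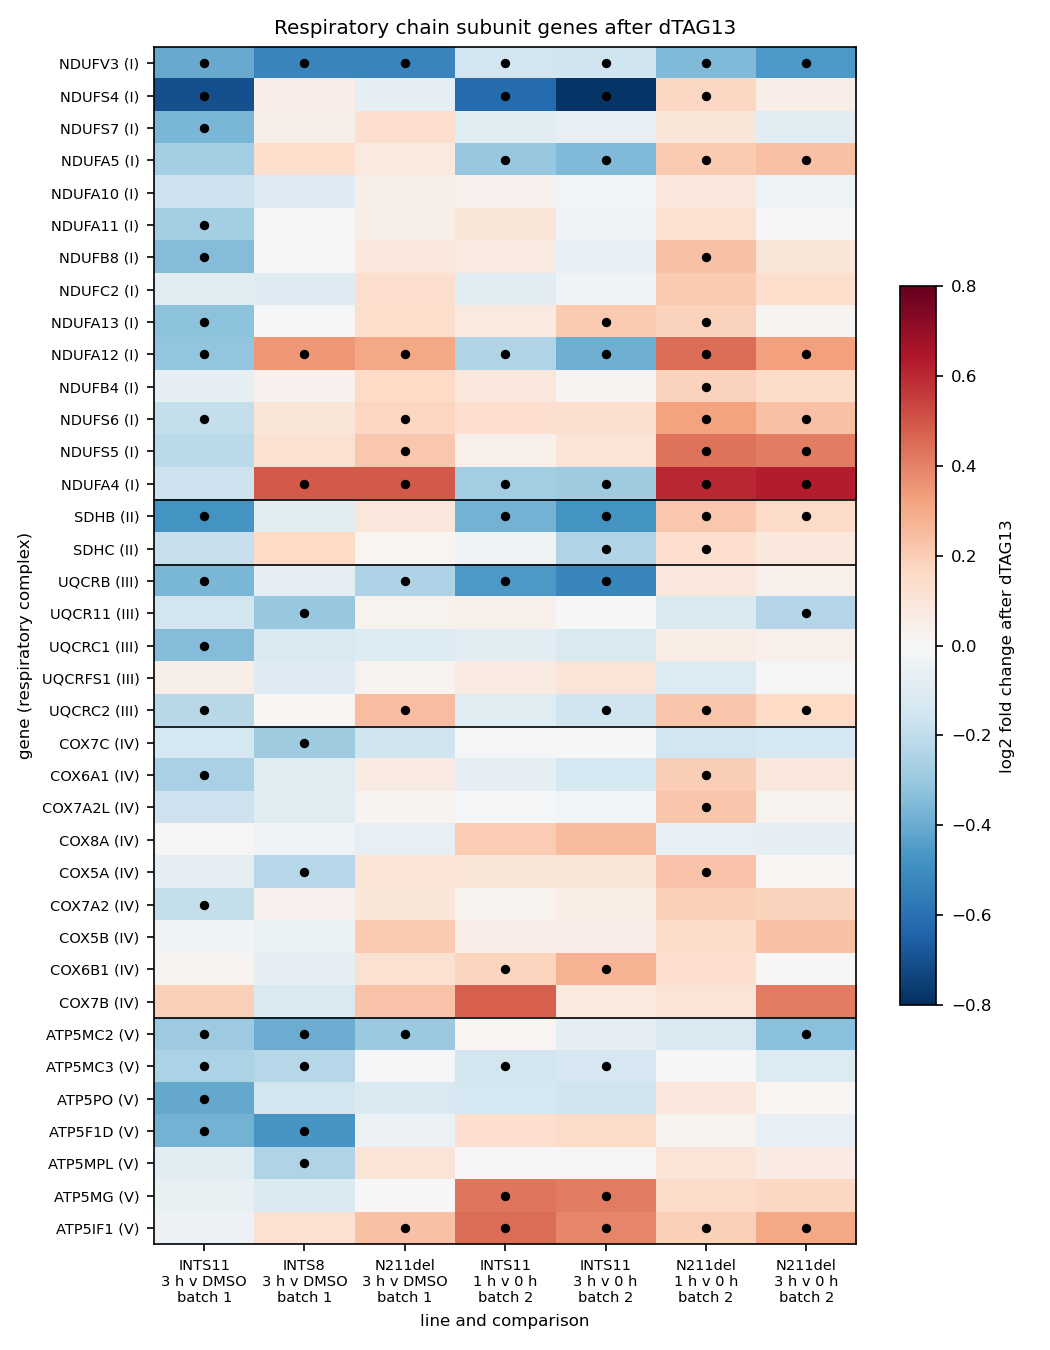
Log2 fold change of 37 of the 38 genes (rows, by complex) in the 7 comparisons of dTAG13 with DMSO or 0 h (columns); blue is lower, red is higher, and a black dot marks a call by limma at an adjusted p of at most 0.05. The INTS11 columns hold the deepest blue at NDUFS4 (-0.70 in batch 1 and -0.78 at 3 h in batch 2), and NDUFV3 carries a dot in all 7 columns.

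The direction of these counts depended on the scale. Centring each library on its median gene took out a shift of -0.03 in the INTS11 line of batch 1, 0.10 in the INTS8 line and 0.26 in the N211del line. In batch 2 the INTS11 line had a shift of 0.15 at 1 h and 0.05 at 3 h, and the N211del line one of 0.35 and 0.20. After centring, 20 members fell and 0 rose in the INTS11 line of batch 1, against 24.5% and 26.1% of all genes. In the INTS8 line 20 fell and 2 rose, against 36.4% and 30.7%. The N211del line of batch 1 then had 24 that fell and 1 that rose, against 35.2% and 26.9%, which turns the direction of the count. The INTS11 line of batch 2 had 18 that fell and 2 that rose at 1 h, against 30.3% and 29.0% of all genes. At 3 h it had 15 and 4, against 28.9% and 31.8%. The N211del line had 23 that fell and 1 that rose at 1 h, against 36.1% and 29.5%, and 17 and 3 at 3 h, against 35.1% and 30.9%, so both counts turned there too.

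Relative to the median gene, then, the members were low in each of the 7 comparisons. Between 27 and 34 of the 38 lay below the median gene (34, 30 and 32 for the INTS11, INTS8 and N211del lines of batch 1, and 33, 27, 34 and 29 in batch 2). The members' median minus that of all genes lay between -0.11 and -0.17. A correction for the trend with level left it between -0.04 and -0.14, and a correction for the trend with gene length between -0.12 and -0.22. Whether the deposited scale holds an external reference was not given in the sources used here.

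**Figure D2:**
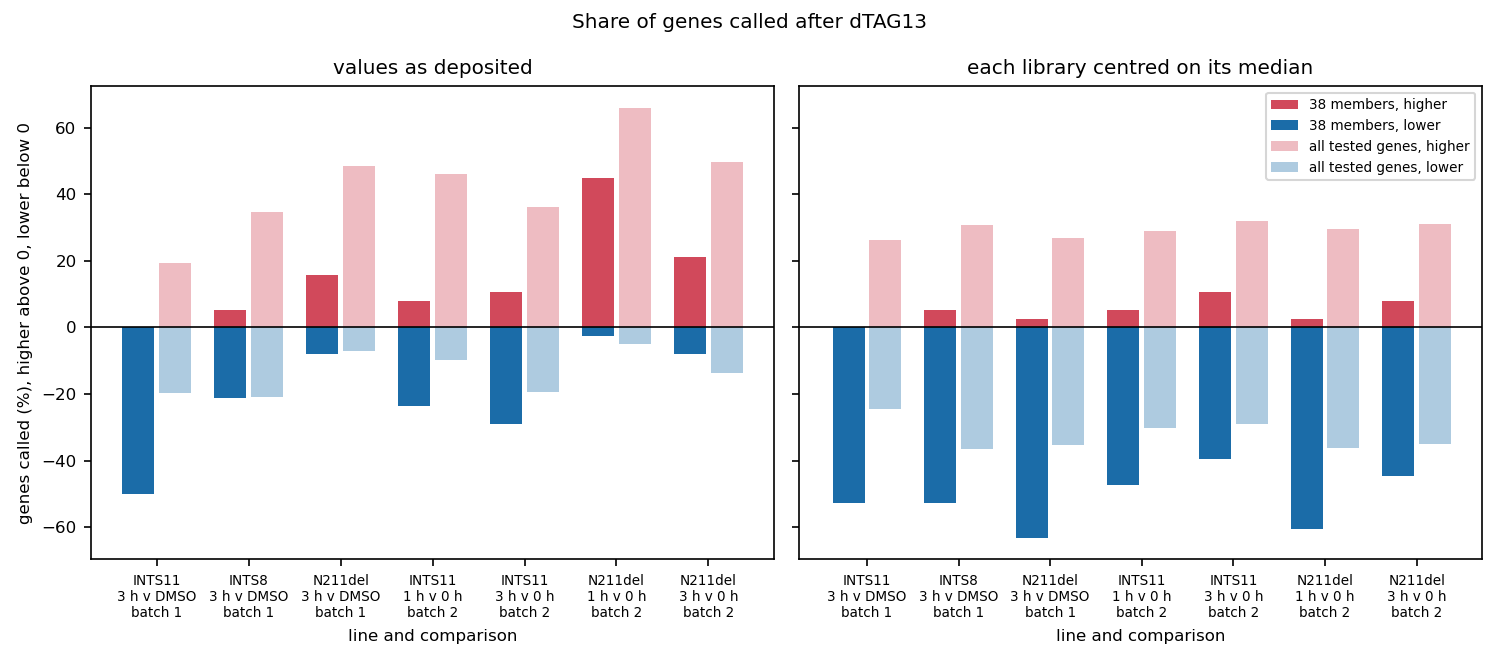
Percent of the 38 members (dark bars) and of all tested genes (pale bars) called higher (above 0) or lower (below 0) in each comparison, on the deposited scale (left) and after centring each library on its median (right). On the deposited scale 19 of 38 members fell in the INTS11 line of batch 1 against 19.8% of all genes; after centring the dark bars point mainly down in all 7 comparisons.

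**Figure D3:**
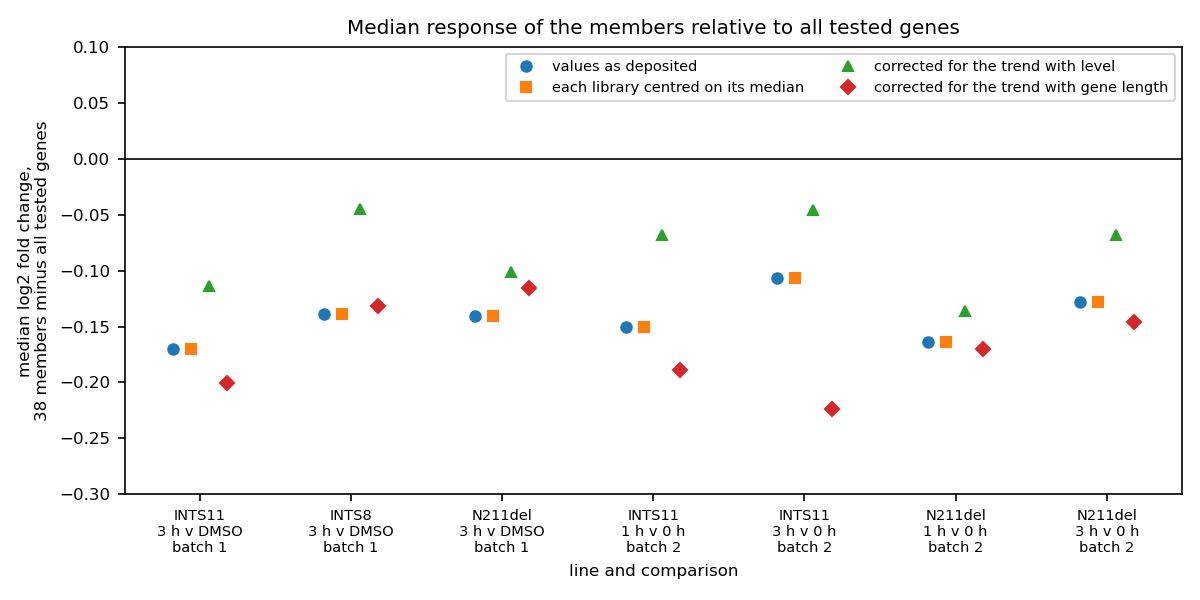
Median log2 fold change of the 38 members minus that of all tested genes (vertical axis) in the 7 comparisons, on 4 scales (symbols). All 28 points lie below 0, from -0.04 (INTS8 line, corrected for level) to -0.22 (INTS11 line of batch 2 at 3 h, corrected for length).

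In complex I, 9 of 15 members fell in the INTS11 line of batch 1 and 0 rose, where 19.8% and 19.4% of all genes did. At 1 h in batch 2 the line had 6 that fell and 0 that rose, and at 3 h 6 and 1, against 9.86% and 46.0%, and 19.3% and 36.0%, of all genes. The INTS8 line had 1 that fell and 2 that rose, against 21.0% and 34.6%. The N211del line had 1 and 4 in batch 1 (7.10% and 48.5% of all genes), 1 and 10 at 1 h in batch 2 (4.92% and 66.0%), and 1 and 5 at 3 h (13.8% and 49.7%), so its rises lay near or below the share of all genes. After centring it had 7 that fell and 1 that rose in batch 1, against 35.2% and 26.9% of all genes. In batch 2 it then had 6 and 1 at 1 h (36.1% and 29.5%), and 6 and 3 at 3 h (35.1% and 30.9%). Centring takes 0.20 to 0.35 from the log2 fold changes of the N211del line, and smaller rises there turn.

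NDUFS4, an accessory subunit at the NADH-oxidising end of complex I, had the largest fall. In the INTS11 line of batch 1 it stood at 14.5 and 13.3 per kb with DMSO and at 8.52 and 8.44 with dTAG13 (13.9 ± 0.905 and 8.48 ± 0.0576, mean ± SD, n = 2 each). The treated libraries lay far below the controls and close to each other. The log2 fold change was -0.70 (SE 0.09, limma adjusted p = 2.34e-06), a change of -38.6%. The INTS11 line of batch 2 stood at 11.8 and 11.3 at 0 h, 7.62 and 7.35 at 1 h and 6.70 and 6.60 at 3 h. The fall was -34.7% at 1 h and -41.9% at 3 h, with log2 fold changes of -0.61 (SE 0.05, limma adjusted p = 7.55e-06) and -0.78 (SE 0.05, limma adjusted p = 2.82e-06), and the step from 1 h to 3 h was -0.17 (SE 0.05, limma adjusted p = 0.0413). Most of the fall was therefore in place at 1 h. Values in the INTS8 line were 13.1 and 13.0 with DMSO and 14.4 and 12.9 with dTAG13, which overlap, with a log2 fold change of 0.05 (SE 0.09, limma adjusted p = 0.627). The N211del line of batch 1 had 8.80 and 9.40 (DMSO) and 8.19 and 9.14 (dTAG13), overlapping as well, at -0.07 (SE 0.09, limma adjusted p = 0.516). In batch 2 that line stood at 9.24 and 9.78 at 0 h, 10.5 and 10.8 at 1 h and 9.68 and 10.1 at 3 h, with 0.16 (SE 0.05, limma adjusted p = 0.0106) at 1 h and 0.05 (SE 0.05, limma adjusted p = 0.345) at 3 h. That small rise at 1 h turned to -0.19 after centring, and its adjusted p was 0.0792 without replicate 1 of 0 h. After centring the INTS11 values were -0.67, -0.77 and -0.84. NDUFS4 was then called lower in the N211del line too, at -0.33 in batch 1 and -0.19 and -0.14 in batch 2, but not in the INTS8 line (-0.05).

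The promoters of the members that show the main patterns are printed here, as the 150 bases before the annotated start in RefSeq on GRCh38.p14, 5′ to 3′ on the gene's strand. NDUFS4 and SDHB fell in the INTS11 line, NDUFA12 and NDUFA4 moved in opposite directions in different lines, and NDUFV3 fell in all 7 comparisons. Capitals mark the ETS match CCGGAAG.
NDUFS4 (chr5:53560489-53560638, plus strand): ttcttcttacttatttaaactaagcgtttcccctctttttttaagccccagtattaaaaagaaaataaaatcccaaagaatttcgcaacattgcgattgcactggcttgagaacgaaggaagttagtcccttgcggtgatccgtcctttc
SDHB (chr1:17054033-17054182, minus strand): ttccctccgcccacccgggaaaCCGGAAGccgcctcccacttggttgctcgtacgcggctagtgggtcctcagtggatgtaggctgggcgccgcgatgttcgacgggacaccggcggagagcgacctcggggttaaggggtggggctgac
NDUFA12 (chr12:95003698-95003847, minus strand): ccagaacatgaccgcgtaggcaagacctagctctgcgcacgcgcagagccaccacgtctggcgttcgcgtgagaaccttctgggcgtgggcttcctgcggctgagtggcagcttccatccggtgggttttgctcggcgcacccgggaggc
NDUFA4 (chr7:10940154-10940303, minus strand): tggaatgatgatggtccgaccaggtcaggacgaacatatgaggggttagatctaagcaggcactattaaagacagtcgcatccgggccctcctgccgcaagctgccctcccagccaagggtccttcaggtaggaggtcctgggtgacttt
NDUFV3 (chr21:42893159-42893308, plus strand): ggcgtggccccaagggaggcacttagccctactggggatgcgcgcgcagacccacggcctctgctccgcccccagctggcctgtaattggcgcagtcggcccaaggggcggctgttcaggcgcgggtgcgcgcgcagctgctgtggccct
The ETS match of SDHB runs from base 128 to base 122 before the start.

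In the window from 250 bases before to 50 after the start, 31 of the 38 members had a RefSeq promoter. Both strands were searched. The NRF1 letters GCGCATG were in 8 of 31 (25.8%), against 6.8% of the promoters of 5813 listed genes and 4.7% of all 27305 promoters of that length. The ETS letters CCGGAAG were in 8 (25.8%), against 16.4% and 10.6%. The YY1 letters AAGATGG were in 9 (29.0%), against 6.5% and 6.0%, and TATAAA in 2 (6.5%), against 5.8% and 12%. SDHB held all of NRF1, ETS and YY1 in its window, NDUFS4 and NDUFA12 held YY1 alone, and NDUFA4 and NDUFV3 held none of the 4. A match of letters does not show binding, and members that fell and members that rose are both among those with a YY1 match.

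NDUFA5, NDUFS7, NDUFB8, NDUFA11 and NDUFA13 were called lower in the INTS11 line in 1 batch each. NDUFA5, an accessory subunit of the arm that faces the matrix, went from 12.4 and 12.2 at 0 h to 9.63 and 10.4 at 1 h and 8.93 and 10.4 at 3 h in batch 2, with -0.30 (SE 0.07, limma adjusted p = 0.00407) and -0.35 (SE 0.07, limma adjusted p = 0.00171). In batch 1 its log2 fold change was -0.27 (SE 0.11, limma adjusted p = 0.0729). It went the other way in the N211del line of batch 2, from 11.3 and 10.6 to 13.0 and 12.7 at 3 h (0.23, SE 0.07, limma adjusted p = 0.0128), a call lost without replicate 2 of 0 h or without replicate 1 of 3 h (adjusted p 0.0793 and 0.0606). NDUFS7, a core iron-sulphur subunit, fell in batch 1 (-0.37, SE 0.12, limma adjusted p = 0.0285), but its adjusted p was 0.479 without replicate 2 of the treated group. NDUFB8 and NDUFA11, accessory subunits of the membrane arm, fell there at -0.35 (SE 0.07, limma adjusted p = 0.00049) and -0.27 (SE 0.08, limma adjusted p = 0.0106). NDUFA13, also known as GRIM-19, fell in batch 1 at -0.33 (SE 0.08, limma adjusted p = 0.00375) and was called higher at 3 h in batch 2 at 0.21 (SE 0.06, limma adjusted p = 0.0182), a call lost without replicate 2 of 0 h or replicate 1 of 3 h (adjusted p 0.125 and 0.0863).

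NDUFA4 and NDUFA12 moved in opposite directions in different lines. NDUFA4 stood at 42.6 and 38.8 with DMSO and 56.8 and 57.5 with dTAG13 in the INTS8 line, and at 37.1 and 37.7 (DMSO) and 50.9 and 54.6 (dTAG13) in the N211del line of batch 1. All 4 treated libraries lay above all 4 controls. The log2 fold changes were 0.49 (SE 0.08, limma adjusted p = 1.01e-05) and 0.49 (SE 0.08, limma adjusted p = 9.12e-06). The N211del line of batch 2 went from 43.3 and 41.0 at 0 h to 65.0 and 63.1 at 1 h and 63.4 and 67.0 at 3 h, at 0.60 (SE 0.06, limma adjusted p = 1.64e-05) and 0.63 (SE 0.06, limma adjusted p = 1.66e-05). In the INTS11 line of batch 2 it fell instead, from 53.1 and 47.8 to 43.6 and 39.6 at 1 h and 42.1 and 40.6 at 3 h, at -0.28 (SE 0.06, limma adjusted p = 0.0042) and -0.29 (SE 0.06, limma adjusted p = 0.00377). In batch 1 that line had 34.9 and 40.2 (DMSO) and 33.9 and 32.7 (dTAG13), at -0.17 (SE 0.08, limma adjusted p = 0.0832), which passed without replicate 1 of DMSO (adjusted p 0.0232). After centring the rises stayed rises, at 0.38 in the INTS8 line, 0.23 in the N211del line of batch 1, and 0.25 and 0.43 in batch 2. The human genome holds processed copies of NDUFA4, so reads could have been split between them.

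NDUFA12, an accessory subunit at the joint of the NADH and ubiquinone parts, stood at 24.2 and 24.2 with DMSO and 19.4 and 19.4 with dTAG13 in the INTS11 line of batch 1. In the INTS8 line it stood at 22.6 and 22.2 (DMSO) and 29.6 and 27.4 (dTAG13), and in the N211del line at 17.5 and 16.8 (DMSO) and 21.0 and 21.7 (dTAG13). No treated library overlapped its controls in any of the 3 lines, and the INTS11 line alone went down. Log2 fold changes were -0.31 (SE 0.07, limma adjusted p = 0.00181), 0.34 (SE 0.07, limma adjusted p = 0.000388) and 0.31 (SE 0.07, limma adjusted p = 0.000998). The INTS11 call of batch 1 was lost with pairs averaged (adjusted p 0.07). At 3 h of batch 2 the INTS11 line had gone from 21.7 and 20.4 to 16.8 and 15.4 (-0.39, SE 0.05, limma adjusted p = 0.000158) and the N211del line from 18.6 and 19.0 to 23.7 and 23.5 (0.33, SE 0.05, limma adjusted p = 0.00026). Centred values kept the sign in all 7, with 0.05 in the N211del line of batch 1 and 0.10 at 1 h in batch 2 no longer called.

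NDUFV3, an accessory subunit of the flavoprotein part of complex I, was the one member called lower in all 7 comparisons, and it stayed called lower in all 7 after centring and after the corrections for level and for length. In batch 1 it stood at 25.5 and 26.9 with DMSO and 20.0 and 19.5 with dTAG13 in the INTS11 line, at 30.0 and 27.7 (DMSO) and 21.4 and 18.6 (dTAG13) in the INTS8 line, and at 27.1 and 25.3 (DMSO) and 17.5 and 18.8 (dTAG13) in the N211del line. Treated and control libraries did not overlap. The log2 fold changes were -0.41 (SE 0.08, limma adjusted p = 0.000518), -0.53 (SE 0.08, limma adjusted p = 9.75e-06) and -0.53 (SE 0.08, limma adjusted p = 1.05e-05). In batch 2 the INTS11 line went from 23.3 and 22.4 at 0 h to 20.8 and 20.4 at 1 h and 19.6 and 21.3 at 3 h, and the N211del line from 20.3 and 20.1 to 16.0 and 15.5 at 1 h and 14.8 and 14.5 at 3 h. The log2 fold changes were -0.15 (SE 0.04, limma adjusted p = 0.0165) and -0.16 (SE 0.04, limma adjusted p = 0.0124) in the INTS11 line, and -0.36 (SE 0.04, limma adjusted p = 6.2e-05) and -0.46 (SE 0.04, limma adjusted p = 1.5e-05) in the N211del line. The INTS11 calls of batch 2 were the least firm, since the adjusted p was 0.0873 at 1 h and 0.0708 at 3 h without replicate 1 of 0 h, 0.0756 without replicate 2 of 1 h, 0.113 without replicate 1 of 3 h, and 0.0606 and 0.089 with pairs averaged.

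NDUFS5 and NDUFS6, an accessory subunit on the intermembrane side and a zinc-binding accessory subunit, rose in the N211del line of batch 2. NDUFS5 went from 23.6 and 25.4 at 0 h to 32.7 and 33.7 at 1 h and 33.1 and 32.2 at 3 h, all treated libraries above the controls. Its log2 fold changes were 0.44 (SE 0.06, limma adjusted p = 0.000154) and 0.41 (SE 0.06, limma adjusted p = 0.000297), and those of NDUFS6 were 0.32 (SE 0.06, limma adjusted p = 0.000613) and 0.23 (SE 0.06, limma adjusted p = 0.0054). After centring NDUFS5 stood at 0.09 and 0.22, of which the 3 h value alone was called, and NDUFS6 at -0.027 and 0.037, neither of them called. In batch 1 the same line gave 0.22 (SE 0.09, limma adjusted p = 0.0407) for NDUFS5 and 0.17 (SE 0.07, limma adjusted p = 0.0368) for NDUFS6, and after centring these turned to -0.043 and -0.09. The first call was lost without replicate 2 of DMSO (adjusted p 0.389) or replicate 2 of dTAG13 (0.338), and the second without either DMSO library of that line (0.0985 and 0.188).

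**Figure D4:**
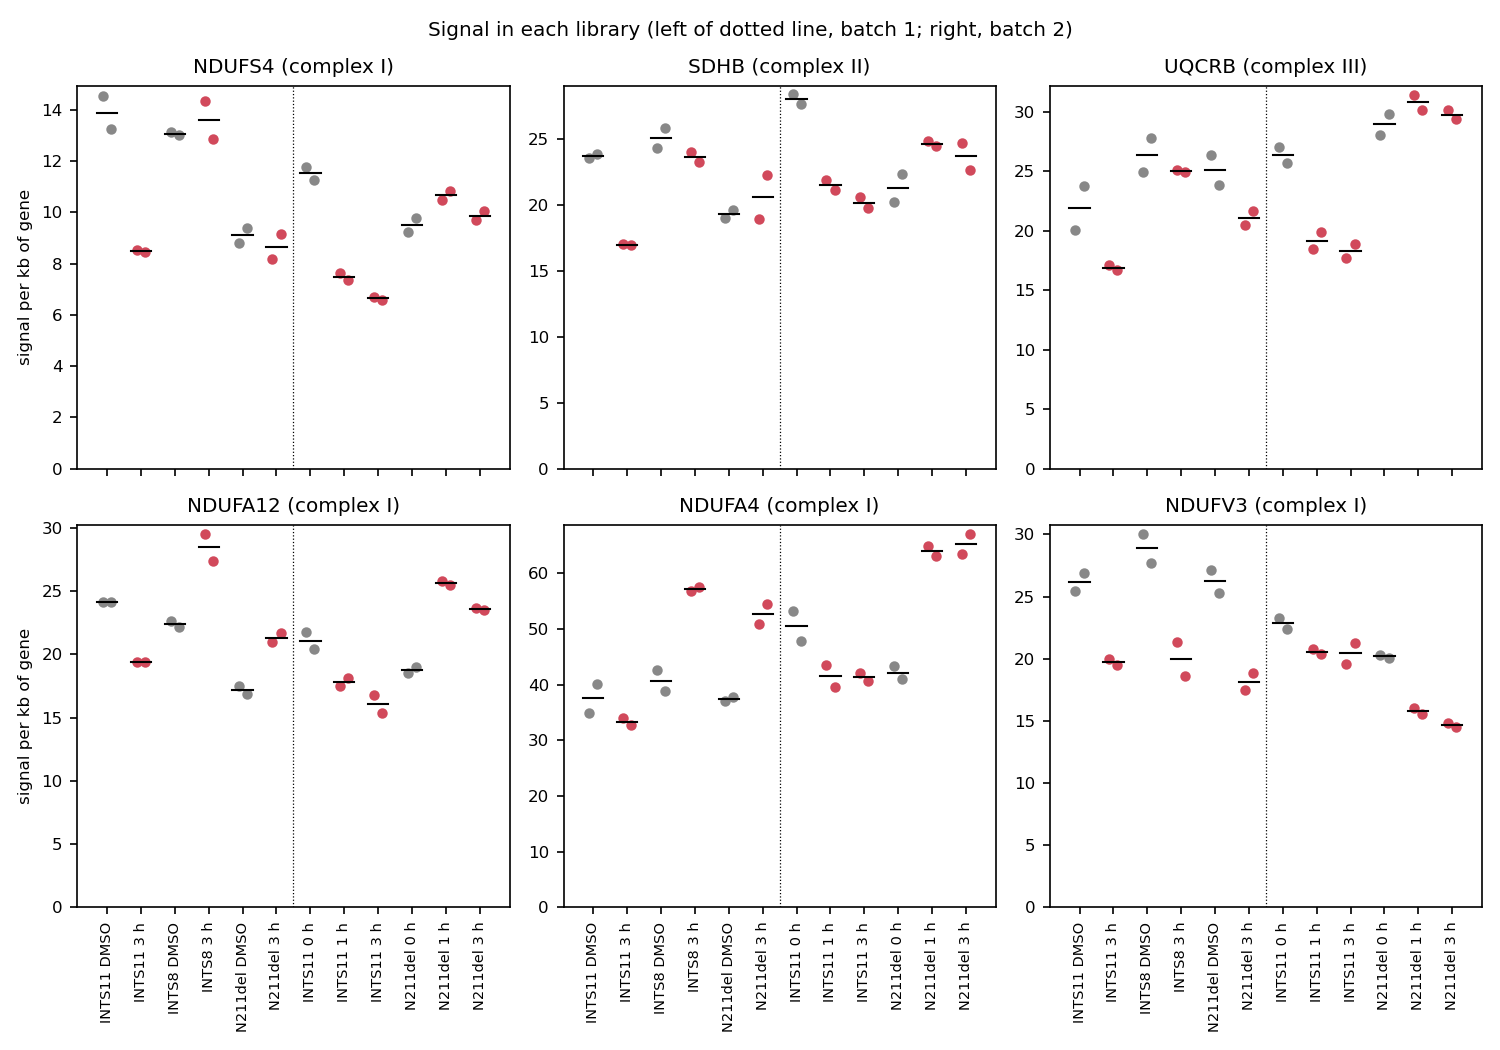
Signal per kb in each library for NDUFS4, SDHB, UQCRB, NDUFA12, NDUFA4 and NDUFV3; grey points are DMSO or 0 h libraries, red points dTAG13 libraries, bars the mean of 2, and the dotted line parts batch 1 from batch 2. NDUFS4 drops from 14.5 and 13.3 to 8.52 and 8.44 in the INTS11 line of batch 1, while NDUFA4 climbs from 42.6 and 38.8 to 56.8 and 57.5 in the INTS8 line.

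Complex II was listed with SDHB, its iron-sulphur subunit, and SDHC, a membrane anchor. SDHB stood at 23.5 and 23.8 with DMSO and 17.0 and 16.9 with dTAG13 in the INTS11 line of batch 1, and in batch 2 it went from 28.4 and 27.6 at 0 h to 21.9 and 21.1 at 1 h and 20.5 and 19.7 at 3 h. The treated libraries lay below the controls in both batches. This gave log2 fold changes of -0.48 (SE 0.08, limma adjusted p = 7.97e-05), -0.38 (SE 0.06, limma adjusted p = 0.000361) and -0.48 (SE 0.06, limma adjusted p = 0.000116). SDHB in the INTS8 line stood at 24.3 and 25.8 (DMSO) and 24.0 and 23.2 (dTAG13), at -0.08 (SE 0.08, limma adjusted p = 0.39). For the N211del line of batch 2 it went from 20.2 and 22.3 to 24.8 and 24.4 at 1 h and 24.6 and 22.6 at 3 h. That small rise, 0.21 (SE 0.06, limma adjusted p = 0.00685) and 0.15 (SE 0.06, limma adjusted p = 0.0357), turned to -0.14 and -0.041 after centring and was lost without replicate 1 of 0 h (adjusted p 0.0623 and 0.26). SDHC fell in the INTS11 line at 3 h of batch 2 at -0.24 (SE 0.05, limma adjusted p = 0.00303), and in batch 1 its log2 fold change was -0.19 (SE 0.08, limma adjusted p = 0.0824).

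In complex III, 3 of 5 members fell in the INTS11 line of batch 1, 1 fell at 1 h and 2 at 3 h in batch 2, and 0 rose. Of all genes 19.8%, 9.86% and 19.3% fell in these comparisons, and 19.4%, 46.0% and 36.0% rose. After centring 3 of 5 fell in each, against 24.5%, 30.3% and 28.9% of all genes. UQCRB, a small subunit near the ubiquinone site, stood at 20.1 and 23.7 with DMSO and 17.1 and 16.7 with dTAG13 in batch 1. In batch 2 it went from 27.0 and 25.7 at 0 h to 18.4 and 19.9 at 1 h and 17.7 and 18.9 at 3 h. The groups did not overlap. Log2 fold changes were -0.37 (SE 0.09, limma adjusted p = 0.00197), -0.46 (SE 0.05, limma adjusted p = 9.48e-05) and -0.52 (SE 0.05, limma adjusted p = 4.89e-05), and the batch 1 call was lost without replicate 2 of DMSO (-0.25, adjusted p 0.0702). UQCRB in the N211del line stood at 26.3 and 23.8 with DMSO and 20.5 and 21.7 with dTAG13 in batch 1 (-0.25, SE 0.09, limma adjusted p = 0.018), a call lost without replicate 1 of DMSO or of dTAG13 (adjusted p 0.189 and 0.103). UQCRC1 and UQCRC2 are the core subunits of complex III that resemble matrix peptidases. UQCRC1 fell in the INTS11 line of batch 1 at -0.35 (SE 0.07, limma adjusted p = 0.000666). UQCRC2 fell there at -0.22 (SE 0.07, limma adjusted p = 0.0171) and at 3 h of batch 2 at -0.16 (SE 0.05, limma adjusted p = 0.0233), and in the N211del line it was higher at 0.25 (SE 0.07, limma adjusted p = 0.00537) in batch 1 and 0.16 (SE 0.05, limma adjusted p = 0.0199) at 3 h in batch 2. After centring the 2 rises turned to -0.013 and -0.039, and the batch 1 rise was lost without replicate 2 of DMSO (adjusted p 0.0708). UQCR11, the smallest subunit, fell in the INTS8 line from 34.2 and 34.0 to 27.2 and 27.9 (-0.31, SE 0.07, limma adjusted p = 0.0011). It was also called lower in the N211del line at 3 h of batch 2, from 34.7 and 32.4 to 28.7 and 28.1 (-0.24). That line had 36.4 and 32.9 (DMSO) and 35.2 and 35.3 (dTAG13) in batch 1, which overlap and were not called.

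Of the 9 members of complex IV 2 fell in the INTS11 line of batch 1, COX6A1 (-0.26, SE 0.07, limma adjusted p = 0.00613) and COX7A2 (-0.19, SE 0.07, limma adjusted p = 0.0428), and 0 rose, where 19.8% and 19.4% of all genes did. In the INTS8 line 2 fell, COX7C (-0.28, SE 0.07, limma adjusted p = 0.00139) and COX5A (-0.23, SE 0.08, limma adjusted p = 0.0156), where 21.0% of all genes fell. Both counts of falls lie near the share of all genes. After centring 2 of 9 fell in the INTS11 line of batch 1, against 24.5% of all genes. In each of the INTS8 and N211del lines of batch 1 6 of 9 then fell, against 36.4% and 35.2%. COX7C, a subunit in the inner membrane and next to ATP5IF1 the highest member, went from 129 and 140.0 to 111 and 109 in the INTS8 line, with no overlap. In batch 2 the INTS11 line had 1 member called higher at each time, COX6B1, which faces the intermembrane space. It went from 30.5 and 29.0 at 0 h to 31.7 and 35.7 at 1 h and 35.4 and 36.7 at 3 h, at 0.18 (SE 0.06, limma adjusted p = 0.0393) and 0.28 (SE 0.06, limma adjusted p = 0.00534). The 1 h value is the weaker, with an adjusted p of 0.183 without replicate 2 of 0 h and 0.275 without replicate 2 of 1 h. In the N211del line of batch 2, COX5A, COX6A1 and COX7A2L were called higher at 1 h (0.23, 0.20 and 0.22 on the log2 scale) and 0 members at 3 h, and COX5A turned to -0.12 after centring.

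The ATP synthase members moved in both directions. In the INTS11 line of batch 1, 4 of 7 fell and 0 rose, where 19.8% and 19.4% of all genes did. In the INTS8 line 4 of 7 fell and 0 rose, against 21.0% and 34.6%. After centring 4 fell in the INTS11 line and 6 in the INTS8 line, against 24.5% and 36.4% of all genes. ATP5MC2 and ATP5MC3, which encode the subunit of the membrane c ring that turns with the proton flow, fell in both. ATP5MC2 stood at 48.8 and 52.0 with DMSO and 42.0 and 40.2 with dTAG13 in the INTS11 line, and at 54.8 and 55.1 (DMSO) and 44.1 and 39.3 (dTAG13) in the INTS8 line. The N211del line had it at 50.4 and 51.3 (DMSO) and 40.4 and 42.4 (dTAG13). Treated libraries lay below the controls in each. These falls came to -0.29 (SE 0.07, limma adjusted p = 0.00259), -0.40 (SE 0.07, limma adjusted p = 5.45e-05) and -0.30 (SE 0.07, limma adjusted p = 0.00123). In batch 2 it fell in the N211del line at 3 h, from 43.5 and 46.9 to 36.6 and 34.9 (-0.34, SE 0.05, limma adjusted p = 0.000436), and was not called in the INTS11 line (-0.08, SE 0.05, limma adjusted p = 0.233). The difference between the batches was not tested. ATP5MC3 gave -0.25 (SE 0.08, limma adjusted p = 0.0115) in the INTS11 line of batch 1, -0.23 (SE 0.08, limma adjusted p = 0.0146) in the INTS8 line and -0.14 (SE 0.05, limma adjusted p = 0.0327) at 3 h in the INTS11 line of batch 2.

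ATP5F1D, a subunit of the central stalk, fell in the INTS11 line from 54.6 and 62.1 to 44.1 and 45.5 and in the INTS8 line from 65.1 and 63.8 to 47.7 and 45.1. On the log2 scale the falls were -0.38 (SE 0.08, limma adjusted p = 0.000684) and -0.47 (SE 0.08, limma adjusted p = 2.55e-05), with no overlap in either line. The INTS11 line of batch 2 stood at 50.2 and 44.6 at 0 h and 53.8 and 51.3 at 3 h, and was not called (0.15, SE 0.06, limma adjusted p = 0.0643). ATP5PO, a subunit of the peripheral stalk, fell in the INTS11 line of batch 1 from 44.2 and 47.0 to 33.4 and 35.2 (-0.41, SE 0.07, limma adjusted p = 0.000172). ATP5MG, a subunit of the membrane part, rose in the INTS11 line of batch 2 from 8.78 and 7.80 at 0 h to 10.5 and 11.9 at 1 h and 10.7 and 11.5 at 3 h (0.43, SE 0.09, limma adjusted p = 0.00368 and 0.42, SE 0.09, limma adjusted p = 0.00416). ATP5IF1, the inhibitor, rose in 5 of the 7 comparisons, more than any other member. In batch 2 the INTS11 line went from 105 and 109 at 0 h to 142 and 150.3 at 1 h and 138 and 143 at 3 h, and the N211del line from 159 and 164 to 189 and 179 at 1 h and 202 and 197 at 3 h. Every treated library lay above its controls. The log2 fold changes were 0.45 (SE 0.04, limma adjusted p = 2.28e-05) and 0.39 (SE 0.04, limma adjusted p = 5.91e-05) in the INTS11 line, and 0.19 (SE 0.04, limma adjusted p = 0.00253) and 0.31 (SE 0.04, limma adjusted p = 0.000138) in the N211del line. The 1 h rise in the N211del line turned to -0.16 after centring. In batch 1 the INTS11 line stood at 124 and 135 (DMSO) and 119.7 and 131 (dTAG13), which overlap (-0.047, SE 0.07, limma adjusted p = 0.621), and the N211del line at 162 and 165 (DMSO) and 186 and 199 (dTAG13), at 0.23 (SE 0.07, limma adjusted p = 0.00718). That last value turned to -0.027 after centring and was not called without replicate 2 of dTAG13 (adjusted p 0.0919).

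The INTS11 calls of the 2 batches can be set side by side, since they share no library, although the controls differ (DMSO against 0 h). Of the 19 members that fell in batch 1, 8 (42.1%) also fell at 3 h in batch 2, which is 72.7% of the 11 that fell there. Over all genes tested in both batches these shares were 60.1% and 58.2%. Among these were NDUFS4, NDUFA12, NDUFV3, SDHB, UQCRB, UQCRC2 and ATP5MC3. NDUFA13 was called in opposite directions. For the N211del line the 6 members that rose in batch 1 all rose at 3 h in batch 2 (75.0% of the 8 there), namely ATP5IF1, NDUFA12, NDUFA4, NDUFS5, NDUFS6 and UQCRC2. Over all genes 86.5% of those that rose in batch 1 also rose there, 82.8% of the latter. After centring NDUFA4 alone of the 6 was called higher in both, and ATP5IF1, NDUFS5, NDUFS6 and UQCRC2 were below 0 in batch 1. ATP5MC2 and NDUFV3 fell in both, 66.7% of the 3 that fell in each batch, against 79.6% and 39.1% over all genes. After centring 16 members fell in both, 66.7% of the 24 in batch 1 and 94.1% of the 17 at 3 h in batch 2. Over all genes the centred shares were 81.2% and 77.4%.

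Whether the lines responded differently was tested as a difference of responses within a batch. The response of the INTS8 line minus that of the INTS11 line was called for 9 members, 9 higher and 0 lower, against 19.4% and 6.0% of all genes. It was largest for NDUFS4 at 0.76 (SE 0.13, limma adjusted p = 9.34e-05), NDUFA12 at 0.66 (SE 0.10, limma adjusted p = 4.62e-05) and NDUFA4 at 0.66 (SE 0.11, limma adjusted p = 7.07e-05). Of the 9, 7 were counted under complex I, NDUFA4 among them, and 2, SDHB (0.39) and SDHC (0.35), under complex II. Centring made this 6 higher and 8 lower, against 17.1% and 20.9%, with NDUFS4 at 0.62. Without replicate 1 of the INTS8 DMSO group 4 members were called, without replicate 2 of the INTS11 DMSO group 5, and with pairs averaged 3. The N211del response minus the INTS8 response was called for 3 members, all higher, ATP5F1D (0.42, SE 0.11, limma adjusted p = 0.0236), COX5A (0.34, SE 0.11, limma adjusted p = 0.0491) and UQCR11 (0.33, SE 0.10, limma adjusted p = 0.0413), against 9.04% higher and 2.01% lower of all genes. None of the 3 passed after centring, which gave 0 higher and 2 lower against 4.36% and 7.13%. On the deposited scale 0 members were called without replicate 1 of either DMSO group or without replicate 2 of either treated group.

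In batch 2 the 3 h response of the N211del line minus that of the INTS11 line was called for 13 members, 10 higher and 3 lower, against 35.8% and 15.2% of all genes. It was largest for NDUFA4 at 0.91 (SE 0.09, limma adjusted p = 3.76e-05), NDUFS4 at 0.84 (SE 0.07, limma adjusted p = 1.25e-05) and NDUFA12 at 0.72 (SE 0.07, limma adjusted p = 3.65e-05), followed by SDHB at 0.63 (SE 0.08, limma adjusted p = 0.000181), NDUFA5 at 0.58 (SE 0.09, limma adjusted p = 0.00077) and UQCRB at 0.56 (SE 0.08, limma adjusted p = 0.000267). NDUFV3, COX6B1 and ATP5MC2 were the 3 lower, at -0.30, -0.28 and -0.26. Centring gave 9 higher and 11 lower, against 25.2% and 28.7%, with NDUFS4 at 0.69 and NDUFA4 at 0.77. At 3 h in batch 2, 5 of the 11 members that fell in the INTS11 line (45.5%) rose in the N211del line, where they made up 62.5% of the 8 that rose. They were NDUFA12, NDUFA4, NDUFA5, SDHB and UQCRC2. Over all genes the shares were 32.2% and 12.5%. After centring NDUFA12 and NDUFA4 alone fell in the one line and rose in the other (13.3% of the 15 that fell and 66.7% of the 3 that rose, against 14.8% and 13.9% of all genes), while NDUFA5 stood at 0.035, SDHB at -0.041 and UQCRC2 at -0.039 in the N211del line.

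**Figure D5:**
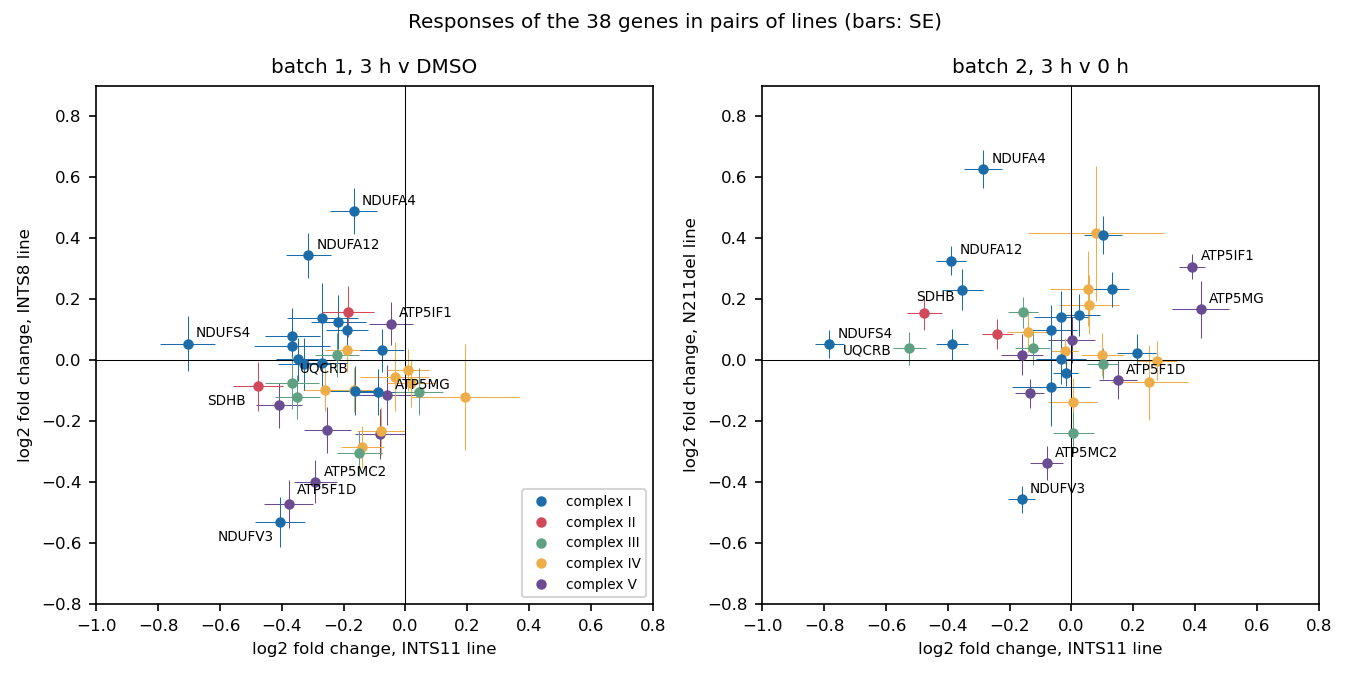
Log2 fold change in the INTS11 line (horizontal) against that in the INTS8 line of batch 1 (left) or the N211del line of batch 2 at 3 h (right) for the 38 genes, coloured by complex, with bars of 1 standard error; the lines in a panel share no libraries. NDUFS4 lies far left near the horizontal 0 line in both panels (-0.70 with 0.05, and -0.78 with 0.05), and NDUFA4 and NDUFA12 lie to the upper left.

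Between 1 h and 3 h few members were called as moving further. Measured against the median gene, most members went up over this step. Their median minus that of all genes was 0.07 (INTS11) and 0.06 (N211del), with 8 of 38 below the median gene each time. Against 0 h that gap was -0.15 at 1 h and -0.11 at 3 h for INTS11, and -0.16 and -0.13 for N211del. Whether the gap itself changed between the times was not tested. In the INTS11 line 2 fell, NDUFS4 (-0.17) and SDHC (-0.21), and 0 rose, against 15.1% and 0.475% of all genes. Leaving out replicate 1 of 1 h or either library of 3 h took this to 0, and leaving out replicate 2 of 1 h or any N211del library of 1 h or 3 h took it to 1. In the N211del line 4 fell and 1 rose, against 35.0% and 2.20%. ATP5MC2 (-0.21), COX5A (-0.21), COX7A2L (-0.19) and NDUFA10 (-0.13) fell and ATP5IF1 (0.12) rose. Without replicate 2 of 3 h the count was 0. It was 2 without either of its 1 h libraries or either INTS11 library of 3 h, and 3 without either of its 0 h libraries. After centring 0 members were called in the INTS11 line (1.55% of all genes were higher and 1.21% lower), and 2 were higher and 0 lower in the N211del line, against 11.6% and 7.63%.

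The lines differed before treatment as well. With DMSO, 15 members were lower and 2 higher in the N211del line than in the INTS8 line, against 58.7% and 5.03% of all genes, whose median difference was -0.30. NDUFS4 was lower at -0.52 (SE 0.09, limma adjusted p = 3.73e-05), UQCRC2 at -0.43 (SE 0.07, limma adjusted p = 2.62e-05) and NDUFA10, a membrane-arm accessory subunit, at -0.40 (SE 0.08, limma adjusted p = 0.000195). COX8A, an inner-membrane subunit of complex IV, was higher at 0.28 (SE 0.07, limma adjusted p = 0.00103). These values are on the deposited scale, and centring took out a shift of -0.31. The split then turned to 2 lower and 19 higher, against 26.3% each way. On the deposited scale it was 9 lower and 1 higher without replicate 2 of the INTS8 DMSO group. The INTS8 line against the INTS11 line had 8 members higher and 0 lower, against 26.8% and 3.91%, with COX7C at 0.30 and UQCRB at 0.27. After centring 2 were higher and 4 lower, against 21.2% and 18.4%. On the deposited scale the count was 1 without either replicate 1 of the INTS11 DMSO group or replicate 2 of the INTS8 DMSO group, and 5 without replicate 1 of the INTS8 DMSO group.

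At 0 h in batch 2, 19 members were higher and 9 lower in the N211del line than in the INTS11 line, against 38.4% and 31.6% of all genes. After centring 16 were higher and 10 lower, against 36.7% and 35.5%. ATP5MG was at 18.6 and 16.3 per kb in the N211del line, above 8.78 and 7.80 in the INTS11 line (1.06, SE 0.09, limma adjusted p = 6.15e-06), more than any treatment moved it. ATP5IF1 (0.59), ATP5F1D (0.58) and NDUFA10 (0.56) were higher too. SDHB (-0.40) and NDUFS4 (-0.27), which fell in the INTS11 line with treatment, started lower in the N211del line. How far these starting differences bear on the responses was not tested.

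Other mitochondrial genes were read from lists beside the members, as counts on the deposited scale, where the rises of the N211del line carry the shift given above. In batch 1, 19.8% of all genes fell and 19.4% rose in the INTS11 line, 21.0% and 34.6% in the INTS8 line, and 7.10% and 48.5% in the N211del line. In batch 2 the shares were 9.86% and 46.0% (INTS11, 1 h), 19.3% and 36.0% (INTS11, 3 h), and 13.8% and 49.7% (N211del, 3 h). The lists are short, and a count near these shares says nothing particular of its list. Of 23 listed assembly factors of the chain (of 60), 5 fell and 6 rose in the INTS11 line of batch 1, 2 and 10 at 1 h in batch 2, and 6 and 6 at 3 h. In the N211del line 5 fell and 10 rose in batch 1, and 4 and 12 at 3 h in batch 2. NUBPL, an iron-sulphur assembly factor for complex I, rose in all 7 comparisons, from 6.16 and 5.71 to 10.2 and 10.1 in the INTS11 line of batch 1 (0.76, SE 0.09, limma adjusted p = 1.13e-06) and from 6.80 and 6.79 to 13.0 and 12.1 in the INTS8 line (0.87, SE 0.09, limma adjusted p = 3.47e-08). SDHAF4, an assembly factor for complex II, fell in the INTS8 line (-0.66) and the N211del line (-0.87) of batch 1, and was at 0.028 in the INTS11 line with an adjusted p of 0.827. NDUFAB1, the acyl carrier protein that is also a complex I subunit and is not caught by the symbol rule, fell in the INTS11 line of batch 1 (-0.31, SE 0.07, limma adjusted p = 0.00131) and was at -0.07 (SE 0.05, limma adjusted p = 0.272) at 3 h in batch 2.

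Of 8 listed carriers and porins of the mitochondrial membranes (of 12), 5 fell and 1 rose in the INTS11 line of batch 1, 5 and 3 in the INTS8 line, and 2 and 3 in the N211del line. SLC25A4, the ADP/ATP carrier that hands ATP synthase its substrate, rose from 26.6 and 29.8 to 55.6 and 52.3 in the INTS8 line (0.94, SE 0.08, limma adjusted p = 3.08e-09), and from 23.6 and 28.5 to 60.3 and 60.8 in the N211del line (1.22, SE 0.08, limma adjusted p = 4.39e-11), a rise above that of any member in those comparisons. SLC25A13, an aspartate/glutamate carrier, fell in all 7 comparisons, between -0.26 and -0.89. Of 7 listed genes of the citric acid cycle and pyruvate dehydrogenase (of 22), 2 fell and 1 rose in the INTS11 line of batch 1, 1 and 1 in the INTS8 line, and 0 and 3 in the N211del line. PDHB, a pyruvate dehydrogenase subunit, fell in the INTS11 line of batch 1 (-0.49, SE 0.12, limma adjusted p = 0.00644) and at 3 h in batch 2 (-0.48, SE 0.07, limma adjusted p = 0.00037), while FH, fumarase, rose in all 7, between 0.22 and 0.49. Of 12 listed genes for ubiquinone and cytochrome c (of 20), 1 fell and 0 rose in the INTS11 line of batch 1, and 4 and 1 at 3 h in batch 2. The INTS8 line had 1 and 3, and the N211del line of batch 1 had 0 and 5.

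Of 8 listed protein import genes (of 27), 2 fell and 0 rose in the INTS11 line of batch 1, led by TIMM17A, an inner-membrane translocase subunit, at -0.43 (SE 0.08, limma adjusted p = 0.00013). TIMM17A was also called lower in the INTS8 line (-0.25, SE 0.08, limma adjusted p = 0.00756) and the N211del line (-0.19, SE 0.08, limma adjusted p = 0.0392) of batch 1. The INTS8 line had 3 and 1 of these, and the N211del line 1 and 3. Of 10 listed regulators of mitochondrial genes in batch 1 (of 23), 3 fell and 1 rose in the INTS11 line. The INTS8 line had 3 of each, and the N211del line 0 and 5. PPRC1, a coactivator related to PGC-1, fell in the INTS11 line at -0.59 (SE 0.08, limma adjusted p = 8.44e-06) in batch 1 and -0.33 (SE 0.03, limma adjusted p = 5.11e-05) at 3 h in batch 2. It also fell in the INTS8 line (-0.26, SE 0.08, limma adjusted p = 0.0103) and in the N211del line of batch 2, at -0.16 (SE 0.03, limma adjusted p = 0.00204) at 1 h and -0.48 (SE 0.03, limma adjusted p = 1.73e-06) at 3 h, and was at -0.10 (SE 0.08, limma adjusted p = 0.339) in that line in batch 1. PPARGC1A, which encodes PGC-1alpha, a coactivator of respiratory genes, was low throughout, with 0.504 and 0.40 per kb with DMSO and 0.965 and 1.03 with dTAG13 in the N211del line (1.00, SE 0.16, limma adjusted p = 2.28e-05), and rose again in batch 2 at 3 h (1.01, SE 0.15, limma adjusted p = 0.000225). It was called higher in the INTS8 line too, from 0.499 and 0.51 to 0.828 and 0.82 (0.61, SE 0.16, limma adjusted p = 0.00325). In the INTS11 line of batch 1 it was at 0.06 (SE 0.16, limma adjusted p = 0.81).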

How the data were processed

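The 24 TT-seq libraries were grouped by their titles into 12 groups of 2. The treatment protocol names 3 h for all libraries, and the times in the titles were used. The tools named per the submitters' processing notes are STAR 2.7.5c, Trim Galore 0.6.6, Picard 2.23.3, SAMtools 1.9 and DESeq2 1.26.0, beside the builds mm10 and hg19, whose roles are not given. The kit was stranded per the labels' protocols, and the use of strand in counting was not given in the sources used here; members that overlap other genes or have processed copies are uncertain.

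The deposited values are named FPKM per the file headers, and the test was chosen for FPKM. In their behaviour they are a signal per kilobase, which in batch 2 also appears to carry a factor per library. In batch 1 the factor was set to 1.0 in every library and was not estimated. Whether the batch 1 signal was scaled before rounding was not given in the sources used here. Total units in the N211del line of batch 1 were 5612470 and 5514811 (DMSO) and 6175772 and 7015653 (dTAG13). The INTS8 line had 7308329 and 7416280 (DMSO) and 8114955 and 7571707 (dTAG13). The INTS11 line had 7025986 and 7101968 (DMSO) and 6761505 and 6631721 (dTAG13). The shifts that centring took out were 0.26, 0.10 and -0.03 in that order. How far these shifts on the deposited scale follow the total signal of each library was not tested. Lengths were recovered for 6829 of 6832 genes. The lengths came from the steps of the batch 1 values, so those values were bound to come out whole over the length (100%). In batch 2 a factor of 0.565 to 0.753 per library was fitted. With it 91.3 to 94.1% of genes under 200 units came out whole within 0.02, but only 29.4 to 37.2% of all genes with a length. The median member of batch 2, at 455.5 to 576 units, lies above that limit of 200. Because these units may have been scaled before rounding, count tests were not the main result.

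Each batch had its own fit over genes whose mean was at least 0.1. Values were taken as log2(value + 0.1) and fitted with limma 3.58.1 (R 4.3.3), using a mean for every group, a trended robust spread shared by all groups of the batch, and two-sided Benjamini-Hochberg adjusted p-values over all tested genes. Members had a median SE of 0.08 (batch 1) and 0.06 (batch 2) for the log2 fold change. The same replicate number did not pair libraries (correlation of deviations -0.053 to 0.024), so no block was used.

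The members and gene lists were chosen with earlier results of these data known. Named members were, in each of the 7 comparisons with DMSO or 0 h, the 6 largest called falls and rises with a mean of at least 1 and no overlap with the controls, plus NDUFS4, the highest and lowest member of each complex, and members called 1 way in all 7, which gave 28; 1 member is counted but not reported individually here, and other members in the text were named after their values were seen. Up to 2 genes were taken per other list. Alternatives were pseudocounts of 0.01 and 1, no filter or a mean of 1, centring, loess corrections for level and length (span 0.3), a replicate block, only a contrast's own libraries, and each library left out. Averaging of pairs with a chi-square per gene of at most 1.05, and voom on the whole-number units, were added after seeing the data. The procedure was tested on simulated data. Python 3.11.15, numpy 2.4.6, pandas 2.3.3 and matplotlib 3.10.9 were used. Promoters came from RefSeq (GRCh38.p14), a build used for these sequences alone, and 7169 of 7223 symbols matched the symbol table.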

Additional observations from a re-analysis of the deposited data

Results flagged for a closer look

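These members were picked out because their responses to dTAG13 differed between lines by a test of the difference itself (limma, adjusted p of at most 0.05 over all genes); values are differences of log2 fold changes.

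For the INTS8 response minus the INTS11 response in batch 1, NDUFS4 gave 0.76 (adjusted p = 9.34e-05), NDUFA12 0.66 (4.62e-05) and NDUFA4 0.66 (7.07e-05). SDHB gave 0.39 (0.0129), SDHC 0.35 (0.035) and NDUFB8 0.35 (0.0106), and NDUFS5 gave 0.34 (0.0485) and NDUFS6 0.29 (0.0313). NDUFB8, NDUFS5 and NDUFS6 were not called after centring.

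For the N211del response minus the INTS8 response in batch 1, ATP5F1D gave 0.42 (adjusted p = 0.0236), COX5A 0.34 (0.0491) and UQCR11 0.33 (0.0413), none of them called after centring.

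For the N211del response minus the INTS11 response at 3 h in batch 2, NDUFA4 gave 0.91 (adjusted p = 3.76e-05), NDUFS4 0.84 (1.25e-05), NDUFA12 0.72 (3.65e-05) and SDHB 0.63 (0.000181). NDUFA5 gave 0.58 (0.00077), UQCRB 0.56 (0.000267), SDHC 0.33 (0.00415), UQCRC2 0.31 (0.00478) and NDUFS5 0.31 (0.016). Lower in the N211del line were NDUFV3 at -0.3 (0.00369), COX6B1 at -0.28 (0.0292) and ATP5MC2 at -0.26 (0.0196). NDUFS5 was not called after centring.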

How the results depend on the processing

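Counts below are members called in either direction, without the share of all genes beside them. That share was computed for the deposited and centred scales alone. The counts therefore show how calls depend on the processing and say nothing particular of the members. With pairs averaged they were 10 (INTS11) and 4 (N211del) in batch 1, 0 and 0 between 1 h and 3 h (INTS11, N211del), 3 for INTS8 minus INTS11, 0 for N211del minus INTS8, and 1 and 6 for the DMSO contrasts of INTS8 with INTS11 and of N211del with INTS8. Centring gave 22 (INTS8), 25 (N211del, batch 1), 20 (INTS11, 1 h), 20 (N211del, batch 2, 3 h), 0 and 2 between times, 14 for INTS8 minus INTS11 and 20 for N211del minus INTS11. The length correction gave 24 (INTS11, 3 h) and 24 (N211del, 3 h), and 21, 22 and 23 in other comparisons. It gave 0 and 1 between times and 5 for DMSO N211del against INTS8. The level correction gave 19 for N211del in batch 1, 0 and 0 between times and 4 for DMSO INTS8 against INTS11. Voom gave 18 (INTS8), 20 (N211del, batch 1), 20 (N211del, 3 h), 22 for N211del minus INTS11, and 5 and 27 for the DMSO contrasts, the last with 26 higher and 1 lower. Between times the replicate block gave 1 and 3, and a contrast's own libraries gave 0 in the INTS11 line. The block changed 1 of 80 gene calls, NDUFS6 in the N211del line of batch 1 (adjusted p 0.0504). Leaving out 1 library gave 10 to 21 (INTS11), 7 to 12 (INTS8) and 6 to 12 (N211del) in batch 1, and in batch 2 11 to 13 and 11 to 16 (INTS11) and 11 to 19 and 8 to 13 (N211del) at 1 h and 3 h. Between times it gave 0 to 2 and 0 to 5. For the differences of responses it gave 4 to 12, 0 to 7 and 11 to 16, and for the untreated contrasts 1 to 8, 10 to 19 and 23 to 27.

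Of 80 values of named members followed under each setting, these turned negative on the log2 scale. Centring: NDUFS4 -0.19 (1 h) and -0.14 (3 h), SDHB -0.17 (batch 1), -0.14 and -0.041, UQCRB -0.26 and -0.16, all in the N211del line, as were COX5A -0.12, NDUFB8 -0.11 and NDUFS6 -0.027 at 1 h, and ATP5IF1 -0.027, NDUFS5 -0.043, NDUFS6 -0.090 and UQCRC2 -0.013 in batch 1; ATP5MC2 gave -0.14 in the INTS11 line at 1 h. Length: NDUFS4 -0.22 and -0.16, SDHB -0.12 (batch 1) and -0.080, UQCRB -0.23 and -0.17, COX5A -0.096, NDUFB8 -0.11, NDUFS6 -0.0012 (1 h) and -0.033 (batch 1), NDUFS5 -0.0041, and in the INTS11 line at 1 h ATP5MC2 -0.20 and COX6B1 -0.037. Level: NDUFS4 -0.25 and -0.19, SDHB -0.12 (batch 1), -0.083 and -0.0001, UQCRB -0.20. Voom: NDUFS4 -0.14 and -0.12, SDHB -0.15 (batch 1), -0.097 and -0.019, UQCRB -0.22, COX5A -0.081, NDUFB8 -0.071, ATP5IF1 -0.011, NDUFS5 -0.025 and NDUFS6 -0.076 (batch 1). The cause was not tested. Of 960 values with 1 library left out, 911 kept their side of the threshold, 45 lost it and 4 gained it, and pseudocounts and filters changed none of 80. With pairs averaged 16 of 80 lost the call, among them NDUFA12 in the INTS11 line of batch 1 (adjusted p 0.07). Whether depth limits COX7B, the lowest member by mean level per kb, was not tested.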

Other observations

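COX7B, a small inner-membrane subunit of complex IV and the lowest member by mean level per kb in both batches, had replicates far apart at 0 h in the INTS11 line. In the INTS11 line of batch 2 it stood at 6.65 and 3.89 per kb at 0 h, 8.43 and 6.04 at 1 h, and 5.37 and 5.41 at 3 h. In the N211del line it stood at 8.38 and 8.91 at 0 h and 11.6 and 11.6 at 3 h, above all INTS11 libraries at that time. No treatment comparison of COX7B was called. COX5B, COX8A, NDUFC2, NDUFA10 and UQCRFS1, the Rieske iron-sulphur protein of complex III, were not called in any of the 7 comparisons with DMSO or 0 h either. NDUFA10 stood at 14.8 and 14.3 per kb in the INTS11 line and at 21.1 and 22.0 in the N211del line at 0 h, so a member not called in any of those 7 comparisons differed between the lines.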
